A study of Homo sapiens with 6 samples.

Results

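ATF4 and 9 genes of the integrated stress response were followed by RNA sequencing in 92.1, an established human uveal melanoma line. The 10 genes, ATF4, DDIT3, TRIB3, ASNS, CHAC1, SESN2, DDIT4, PPP1R15A, EIF2AK3 and ATF5, were taken by name from a list of ATF4 pathway genes, and each is among the 12010 genes of the deposited data. The LBH589 group held 3 samples exposed to 0.1 µM LBH589 (panobinostat), an inhibitor of the deacetylases that act on histones and other proteins, for 24 h. The DMSO group held 3 samples given the solvent for the same 24 h. Both groups were of the same line, and no label says whether the samples of a group were grown apart. A limma p-value here sets the difference between groups against the scatter of the 6 libraries within their groups, and that scatter may be technical. Levels are FPKM, fragments scaled to transcript length and to the fragments mapped, so levels of different genes can be set side by side per length.

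In the integrated stress response, separate kinases that sense endoplasmic reticulum stress, lack of amino acids, viral RNA or haem and mitochondrial stress converge on phosphorylation of the translation factor eIF2. Phosphorylated eIF2 lowers general translation while a few mRNAs with upstream reading frames, those of ATF4, ATF5, DDIT3 and PPP1R15A among them, are translated better. ATF4 protein then activates genes of amino acid supply and stress adaptation, and PPP1R15A returns the phosphatase that ends the response. ATF4 is therefore controlled largely at translation, and the mRNA levels given here do not measure its protein.

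Promoter sequences of 3 of the genes are shown because they hold letters that ATF4 and related factors are known to bind. The windows are from RefSeq on GRCh38.p14, run from 250 bases before to 50 bases after an annotated start, and were found for each of the 10 genes (17 windows). The letters TGATGNAA, the core of the C/EBP-ATF response element, were searched on both strands, as was the cAMP response element TGACGTCA. A match is in capitals below, with 26 bases of lower case on each side.
ASNS, chr7:97872443-97872502, minus strand: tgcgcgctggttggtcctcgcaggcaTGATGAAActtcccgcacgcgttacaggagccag
CHAC1, chr15:40953236-40953295, plus strand: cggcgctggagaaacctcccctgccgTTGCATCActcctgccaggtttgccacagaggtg
PPP1R15A, chr19:48872337-48872396, plus strand: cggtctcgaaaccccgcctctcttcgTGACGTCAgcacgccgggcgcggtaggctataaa
The match of ASNS begins 68 bases before the start, that of CHAC1 209 bases before it, on the opposite strand, and that of PPP1R15A 58 bases before it. TGATGNAA occurred in 2 of the 17 windows of the 10 genes and in 3.62% of all 34943 windows, and TGACGTCA in 1 of the 17 and in 1.84% of all. The endoplasmic reticulum stress element (ERSE), searched likewise, was in 0.08% of all windows and in 0 of the 17. These matches describe letters in the windows and show no binding. Of the genes printed, ASNS and PPP1R15A rose with LBH589 and CHAC1 fell, as given below.

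ATF4 mRNA and several of the genes that ATF4 protein activates moved in opposite directions. DDIT4, ASNS, PPP1R15A, DDIT3, EIF2AK3 and SESN2 rose, whereas ATF4, TRIB3 and CHAC1 fell. ATF5 did not pass the test. These calls are from limma, fitted to log2(FPKM + 1) of the 11520 genes whose mean over the 6 libraries reached 0.5 FPKM and adjusted by Benjamini-Hochberg over those genes, at adjusted p below 0.05. Thus 6 of the 10 genes rose and 3 fell, while 48.8% of tested genes were called, 27.2% as rises and 21.6% as falls. The groups did not overlap in any of the 10 genes, nor in 59.5% of tested genes, with LBH589 higher in 33.0% and lower in 26.5%. Neither a call nor separate groups therefore set a gene apart here. The median difference of the 10 was 0.61 on the log2(FPKM + 1) scale, against 0.08 over the tested genes. No transcript in the files has both group means under 0.5 FPKM, and CHAC1 and ATF5 reach that level in DMSO and not in LBH589, so their direction was in part set by the listing. Of the other 8 genes, 6 rose and 2 fell.

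**Figure D1:**
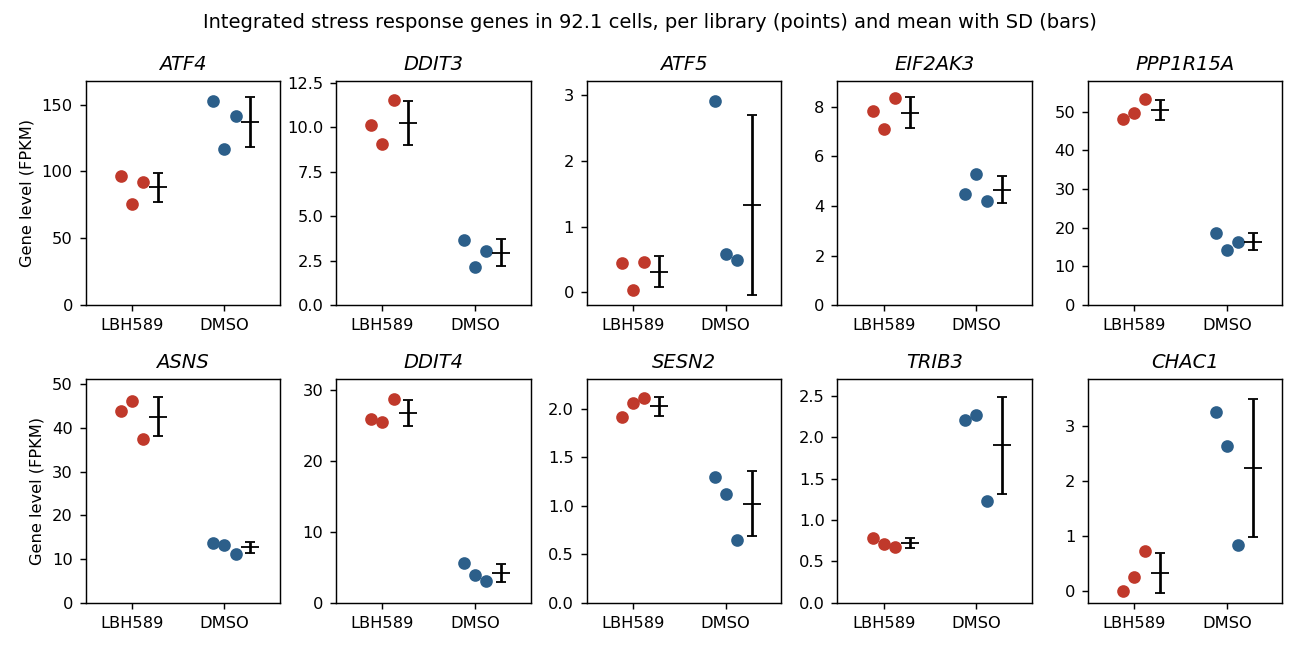
Levels of the 10 genes in FPKM, with 1 panel per gene and 1 point per library, LBH589 left and DMSO right, and the mean with its SD beside the points. Each panel has its own axis. Relative to that axis, the points of the groups are furthest apart in DDIT4, ASNS, PPP1R15A and DDIT3, higher in LBH589, while ATF4 is lower in LBH589.

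The transcription factors of the response did not move together. ATF4, the factor itself, was at 96.4, 76.0 and 92.3 FPKM in the LBH589 samples and at 153, 117 and 142 FPKM in the DMSO samples. Each LBH589 value lay below each DMSO value, and the means were 88.2 ± 10.8 and 137 ± 18.5 FPKM (SD, n = 3 each). The difference was -0.63 (SE 0.15, limma adjusted p = 0.0141). Scaling the libraries to equal sums, which moved the median of tested genes to 0.22, gave ATF4 a difference of -0.45 and ended the call (adjusted p = 0.0608).

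DDIT3 encodes CHOP, a bZIP factor that ATF4 induces and that is tied to cell death under prolonged stress. It was at 10.1, 9.06 and 11.5 FPKM in LBH589 and at 3.66, 2.14 and 3.03 FPKM in DMSO, a ratio of means of 3.48. The groups did not overlap, and the difference was 1.52 (SE 0.18, limma adjusted p = 0.00101). Exons of DDIT3 overlap exons of MARS and MBD6 on the opposite strand in GENCODE 29. Strand use is not given in the labels, so shared fragments cannot be told apart here. DDIT3 and ASNS also each share exons with a further gene on their own strand (AC022506.1 and AC079781.5). Opposite-strand overlap holds as well for DDIT4 with DDIT4-AS1, for EIF2AK3 with a pair of antisense genes and for ATF5 with NUP62 and IL4I1. MARS, a tRNA synthetase gene, was at 14.0, 10.2 and 9.52 FPKM in LBH589 and at 14.0, 12.8 and 8.82 FPKM in DMSO, with overlapping groups (limma adjusted p = 0.82). MBD6, a methyl-CpG-binding domain gene, averaged 4.78 FPKM in LBH589 and 3.56 FPKM in DMSO and was not called (adjusted p = 0.268). ATF5, a bZIP factor translated much as ATF4 is, was at 0.442, 0.0417 and 0.46 FPKM in LBH589 and at 2.91, 0.578 and 0.487 FPKM in DMSO. DMSO replicate 1 stood apart from the other 5 libraries, the highest of which was at 0.578 FPKM, and ATF5 did not pass (difference -0.69, 95% interval -1.67 to 0.29, limma adjusted p = 0.205). Without that library the difference was -0.24 (adjusted p = 0.369).

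The balance of ATF4 to DDIT3 and PPP1R15A is given as a description, since a rise of DDIT3 or PPP1R15A alone lowers it. ATF4 had 9.52, 8.39 and 8.01 times the level of DDIT3 in the LBH589 samples and 41.8, 54.7 and 46.8 times in the DMSO samples. Relative to PPP1R15A, ATF4 stood at 2.004, 1.53 and 1.74 times in LBH589 and at 8.21, 8.23 and 8.70 times in DMSO.

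Among the genes that set the phosphorylation of eIF2, both a kinase and the inducible phosphatase subunit rose. EIF2AK3 encodes PERK, the kinase that senses unfolded protein in the endoplasmic reticulum. It was at 7.83, 7.09 and 8.35 FPKM in LBH589 and at 4.47, 5.28 and 4.22 FPKM in DMSO, with no overlap (difference 0.63, SE 0.13, limma adjusted p = 0.00803). PPP1R15A encodes GADD34, which brings a phosphatase to eIF2. It was at 48.1, 49.7 and 53.2 FPKM in LBH589 and at 18.6, 14.2 and 16.3 FPKM in DMSO. The groups lay far apart, at a ratio of means of 3.07 (difference 1.57, SE 0.12, limma adjusted p = 1.73e-04).

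DDIT4 showed the highest ratio of the 10 genes. DDIT4 encodes REDD1, an inhibitor of the growth kinase complex mTORC1. It was at 25.96, 25.5 and 28.8 FPKM in LBH589 and at 5.64, 3.90 and 3.14 FPKM in DMSO, and the means were 26.8 ± 1.80 and 4.23 ± 1.28 FPKM (ratio 6.33; difference 2.44, SE 0.19, limma adjusted p = 1.93e-04). SESN2 encodes sestrin 2, a leucine sensor that also restrains mTORC1. Its level was low, 1.92, 2.06 and 2.11 FPKM in LBH589 and 1.30, 1.12 and 0.65 FPKM in DMSO, and the groups did not overlap (difference 0.60, SE 0.16, limma adjusted p = 0.0226). SESN2 lost its call when LBH589 replicate 1, 2 or 3 was left out (limma adjusted p = 0.0546, 0.066 and 0.0673).

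ASNS, asparagine synthetase, is a long known target of the amino acid branch. It was at 43.9, 46.2 and 37.6 FPKM in LBH589 and at 13.7, 13.2 and 11.2 FPKM in DMSO, a ratio of means of 3.35 (difference 1.67, SE 0.13, limma adjusted p = 1.58e-04). No value of either group came near the other group.

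TRIB3 and CHAC1, which ATF4 and CHOP induce in many stressed cells, went the other way and stayed near the lowest levels listed. TRIB3, a pseudokinase that feeds back on ATF4, was at 0.783, 0.71 and 0.672 FPKM in LBH589 and at 2.21, 2.27 and 1.22 FPKM in DMSO (difference -0.73, SE 0.18, limma adjusted p = 0.0172). The groups did not overlap, but leaving out LBH589 replicate 2 or 3 or DMSO replicate 2 ended the TRIB3 call (limma adjusted p = 0.0538, 0.0563 and 0.0556). CHAC1, an enzyme that breaks down glutathione, was listed at 0, 0.243 and 0.716 FPKM in LBH589 and at 3.25, 2.64 and 0.829 FPKM in DMSO. DMSO replicate 3 lay close to LBH589 replicate 3, and the difference of -1.24 (SE 0.37, limma adjusted p = 0.0329) was no longer called after leaving out LBH589 replicate 1 or 2 or DMSO replicate 1 or 2 (limma adjusted p = 0.0972, 0.0883, 0.0897 and 0.0958). An exact 0 may be a failed estimate, so no fold is given for CHAC1.

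**Figure D2:**
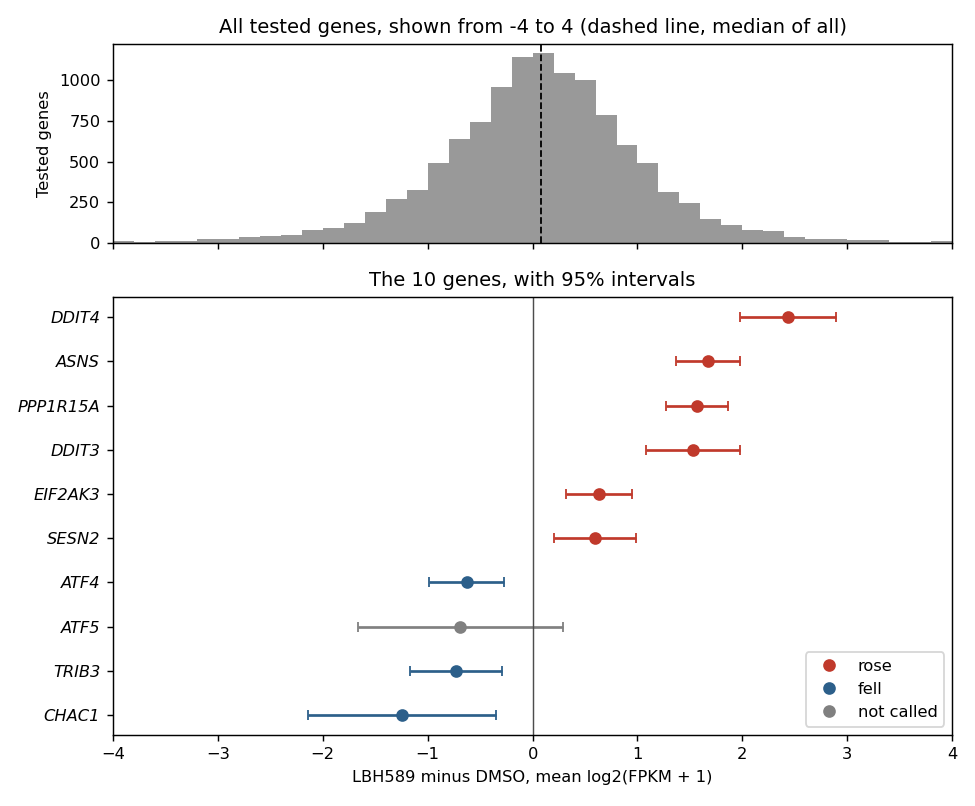
The upper panel shows how many tested genes had each difference in mean log2(FPKM + 1), LBH589 minus DMSO, and the lower panel gives the 10 genes with 95% intervals from limma. DDIT4 lies highest at 2.44 and CHAC1 lowest at -1.24, and the interval of ATF5 is the one that includes 0.

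The order of levels changed with treatment below the top. In both groups ATF4 was highest, PPP1R15A next and ASNS the third, with ranges that did not overlap. In LBH589, DDIT4, DDIT3, EIF2AK3 and SESN2 followed in that order, again with no overlap between neighbours, and TRIB3 lay above ATF5, while CHAC1 overlapped both. In DMSO, EIF2AK3, DDIT4, DDIT3, CHAC1, TRIB3, ATF5 and SESN2 overlapped with their neighbours, between a mean of 4.66 FPKM for EIF2AK3 and 1.02 FPKM for SESN2.

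The gene sums were steadier than the single transcripts behind them. Transcripts were tested in the same way over the 27042 above the same minimum, of which 15.9% were called, 8.62% as rises and 7.33% as falls. ATF4-201 and ATF4-202 are alternative transcripts of ATF4. ATF4-201 held 20.6, 81.4 and 27.1% of ATF4 FPKM in the LBH589 samples and 84.9, 85.5 and 14.8% in the DMSO samples. The dominant transcript thus changed between samples of one treatment, and none of the 3 ATF4 transcripts passed (lowest limma adjusted p = 0.457). GENCODE 29 also holds 4 pseudogenes each named for ATF4 and ASNS, whose copies can share fragments with the genes, so both sums carry that uncertainty.

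ASNS showed such changes too. ASNS-209 was at 33.0, 0 and 31.9 FPKM in LBH589 and at 0, 6.32 and 0 FPKM in DMSO. ASNS-205 was at 1.35, 30.5 and 0.862 FPKM in LBH589 and at 0, 0 and 0.0523 FPKM in DMSO. One of these led in each LBH589 sample. ASNS-214 had the opposite sign, listed at 0 in the 3 LBH589 samples and at 3.93, 0.607 and 8.03 FPKM in DMSO (limma adjusted p = 0.0926), and it was called at pseudocount 0.1 (0.0281) and when DMSO replicate 2 was left out (0.0164). None of the 8 ASNS transcripts passed at pseudocount 1 with all 6 libraries, so the rise of ASNS rests on the sum. When each gene was represented by its most abundant transcript, ASNS and ATF4 were not called (adjusted p = 0.323 and 0.381).

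DDIT3 and PPP1R15A, in contrast, rose through named transcripts. DDIT3-201 was at 3.92, 3.16 and 5.62 FPKM in LBH589 and at 0.664, 0.352 and 0.461 FPKM in DMSO (limma adjusted p = 0.00803 over transcripts). DDIT3-205 was at 5.54, 4.73 and 5.18 FPKM in LBH589 and at 2.25, 1.70 and 1.85 FPKM in DMSO (adjusted p = 0.0151). DDIT3-201 made up 38.7, 34.9 and 48.8% of DDIT3 FPKM in LBH589 and 18.1, 16.5 and 15.2% in DMSO, ranges that did not overlap. DDIT3-205 was not called when LBH589 replicate 1 or 3 was left out (limma adjusted p = 0.0585 and 0.0526). PPP1R15A-201 carried at least 91.4% of PPP1R15A FPKM in each library and rose with it (adjusted p = 0.00207). The single listed transcript of DDIT4 was called as well (adjusted p = 0.00188), while those of EIF2AK3, SESN2, TRIB3 and CHAC1 were not (adjusted p between 0.053 and 0.121). For these single transcripts the levels and differences are those of the gene. Only the moderation and the adjustment, made over transcripts in place of genes, differ.

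**Figure D3:**
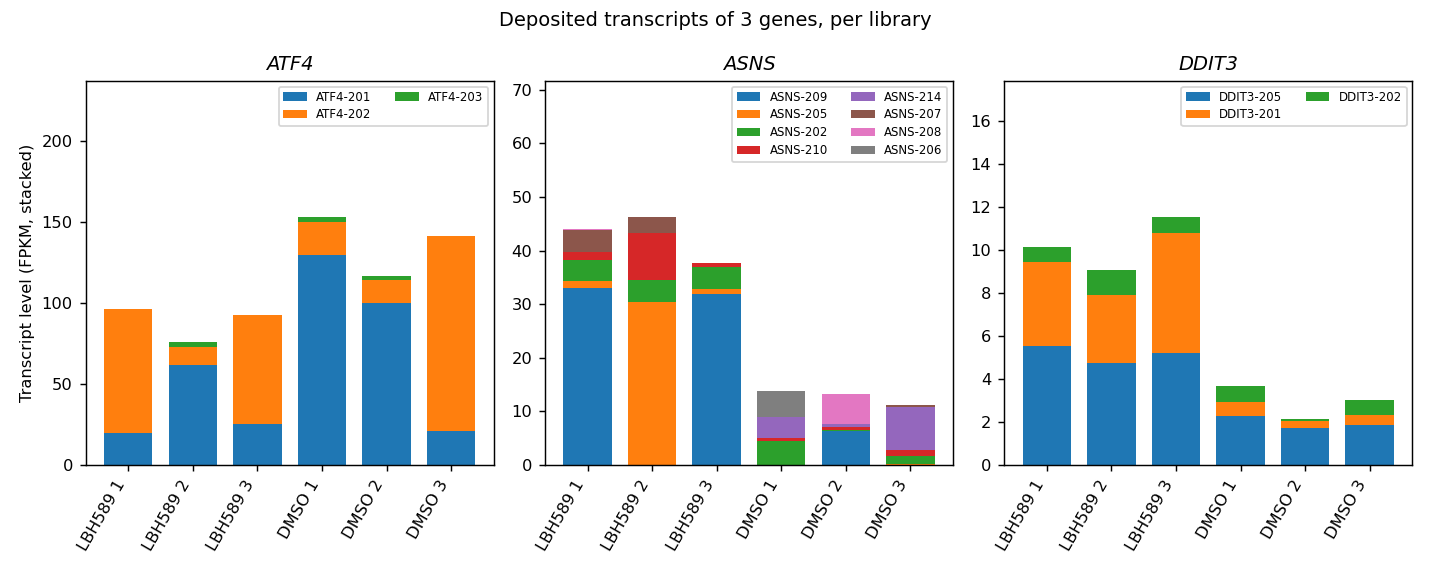
Deposited transcript levels of ATF4, ASNS and DDIT3 in FPKM, stacked per library, LBH589 left and DMSO right. The leading transcript of ATF4 and of ASNS changes between samples of one group, while the stacked heights separate the groups, and both main DDIT3 transcripts are higher in LBH589.

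The other genes of the pathway were read from lists chosen with earlier results of these data known, and their direction was mixed. Their counts stand beside the 27.2% of tested genes that rose and the 21.6% that fell. Of 12 tested eIF2 kinase and phosphatase genes, EIF2AK3 and PPP1R15A included, 4 rose and 2 fell (median difference 0.07, against 0.08 over the tested genes), or 5 and 1 with equal library sums. The falls were 0 when LBH589 replicate 1 or 3 was left out and 1 when LBH589 replicate 2 or DMSO replicate 2 or 3 was. Leaving out DMSO replicate 1 gave 3 falls. Without EIF2AK3 and PPP1R15A, 2 of the other 10 genes rose and 2 fell (median -0.10). The other kinases did not rise with PERK. EIF2AK2 (PKR, which senses viral RNA) was at 14.8, 16.3 and 14.7 FPKM in LBH589 and at 21.8, 46.3 and 37.7 FPKM in DMSO, and fell (difference -1.09, limma adjusted p = 0.0169). For EIF2AK2 the call was lost when LBH589 replicate 1 or 3 or DMSO replicate 3 was left out (limma adjusted p = 0.0514, 0.0559 and 0.0515) and with the most abundant transcript (0.108). EIF2AK1 (HRI, the kinase of haem and mitochondrial stress) was at 43.2, 38.8 and 44.4 FPKM in LBH589 and at 47.8, 50.5 and 53.6 FPKM in DMSO. Its limma adjusted p was 0.0677, and 0.0483 when DMSO replicate 1 was left out. EIF2AK4 (GCN2, the sensor of uncharged tRNA) was at 16.6, 15.4 and 14.0 FPKM in LBH589 and at 16.1, 16.2 and 15.9 FPKM in DMSO, overlapping (adjusted p = 0.626).

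PPP1R15B, the constitutive partner of the eIF2 phosphatase, rose to 25.1 ± 0.862 FPKM in LBH589, against 11.3 ± 0.249 FPKM in DMSO (SD, n = 3 each, limma adjusted p = 2.02e-04). PPP1CC, a catalytic subunit, was at 130 ± 5.34 FPKM in LBH589 and 104 ± 4.52 FPKM in DMSO (adjusted p = 0.0259), and DNAJC3, an inhibitor of PERK and PKR, at 17.1 ± 0.816 FPKM in LBH589 and 22.0 ± 2.60 FPKM in DMSO (adjusted p = 0.049). PPP1CC was not called when LBH589 replicate 1 or 2 or DMSO replicate 2 was left out (highest adjusted p 0.0992) or with its most abundant transcript (0.806). DNAJC3 was not called when any library but DMSO replicate 1 was left out (highest 0.138) or with equal library sums (0.24). Of 8 subunits of eIF2 and of its exchange factor eIF2B, 1 rose and 2 fell (median 0.0049, and -0.02 with equal medians of tested genes). The rise, of EIF2B3, was lost when LBH589 replicate 1, 2 or 3 or DMSO replicate 2 was left out, and leaving out DMSO replicate 1 gave 2 rises. EIF2S2 and EIF2S3, the beta and gamma subunits of eIF2, fell to 72.4 ± 7.13 and 77.2 ± 0.78 FPKM in LBH589, against 139 ± 4.74 and 131 ± 13.8 FPKM in DMSO (limma adjusted p = 7.41e-04 and 0.00177). EIF2S1, the subunit that is phosphorylated, was at 33.7 ± 0.381 FPKM in LBH589 and 34.6 ± 1.98 FPKM in DMSO (adjusted p = 0.743).

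Of 13 tested bZIP factors, namely ATF4 itself, DDIT3, ATF5 and 10 others that can pair with ATF4, 4 rose and 2 fell (median -0.35). With equal library sums 4 rose and 0 fell, and with any library but DMSO replicate 2 left out 1 fell. The fall of ATF4 is among these counts, and of the 10 others 3 rose and 1 fell (median -0.30). ATF3, a stress-induced repressor, was at 12.2, 17.8 and 36.3 FPKM in LBH589 and at 2.62, 4.32 and 3.08 FPKM in DMSO, and rose (difference 2.29, limma adjusted p = 0.00407). Its LBH589 values were wide apart yet all above the DMSO values. MAFK, a small MAF protein, rose to 4.77 ± 0.54 FPKM in LBH589, against 2.63 ± 0.445 FPKM in DMSO (adjusted p = 0.0118). CEBPB, which binds with ATF4 and CHOP, was at 7.27 ± 0.187 FPKM in LBH589 and 3.92 ± 1.57 FPKM in DMSO (adjusted p = 0.0387), and CEBPG, its relative and ATF4 partner, at 6.999 ± 0.678 FPKM in LBH589 and 9.19 ± 0.578 FPKM in DMSO (adjusted p = 0.0489). CEBPG was not called after any 1 library was left out (highest adjusted p 0.137), nor with equal library sums (0.244). CEBPB was not called when LBH589 replicate 1, 2 or 3 or DMSO replicate 2 was left out (highest 0.103).

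Of 14 tested synthesis and one-carbon genes, ASNS included, 5 rose and 3 fell (median 0.02, -0.09 after quantile normalization). That median was between -0.08 and -0.02 when LBH589 replicate 1, 2 or 3 or DMSO replicate 3 was left out. Without ASNS, 4 of the other 13 genes rose and 3 fell (median -0.21). CTH, the last enzyme from methionine to cysteine, rose to 14.1 ± 1.00 FPKM in LBH589, against 7.16 ± 1.09 FPKM in DMSO (limma adjusted p = 0.00255). GOT1, the cytosolic aspartate aminotransferase, rose to 36.5 ± 1.19 FPKM in LBH589, against 17.8 ± 4.66 FPKM in DMSO (adjusted p = 0.0047). PSAT1, of serine synthesis, fell to 22.6 ± 0.776 FPKM in LBH589, against 36.5 ± 3.65 FPKM in DMSO (adjusted p = 0.00281). ALDH1L2, a mitochondrial folate enzyme, was at 0.913, 0.848 and 1.08 FPKM in LBH589 and at 0.135, 0.264 and 0.216 FPKM in DMSO (adjusted p = 0.0035), and it was listed through its LBH589 values.

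Of 10 tested amino acid transporters, 1 rose and 5 fell (median -0.61), where 48.8% of tested genes were called. SLC7A5, the large neutral amino acid exchanger, was at 5.99, 5.36 and 6.78 FPKM in LBH589 and at 28.4, 20.0 and 16.8 FPKM in DMSO (difference -1.66, limma adjusted p = 0.00113). SLC38A1, a glutamine transporter, fell to 19.8 ± 5.99 FPKM in LBH589, against 92.4 ± 25.5 FPKM in DMSO (adjusted p = 0.00107), and SLC43A1, another neutral amino acid carrier, to 0.683 ± 0.081 FPKM, against 2.21 ± 0.687 FPKM in DMSO (adjusted p = 0.00679). SLC38A2, the transporter that cells induce when amino acids are short, was the rise, at 90.9, 87.4 and 86.1 FPKM in LBH589 and 46.1, 49.5 and 56.4 FPKM in DMSO (adjusted p = 0.0013).

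Of 18 tested cytosolic aminoacyl-tRNA synthetases, 4 rose and 6 fell (median -0.13, which turned to 0.04 with equal library sums). RARS, for arginine, rose to 88.0 ± 4.65 FPKM in LBH589, against 32.7 ± 1.66 FPKM in DMSO (limma adjusted p = 9.13e-05), and EPRS, for glutamate and proline, to 66.8 ± 4.69 FPKM, against 40.1 ± 3.64 FPKM in DMSO (adjusted p = 0.00221). IARS, for isoleucine, fell to 33.4 ± 1.37 FPKM in LBH589, against 54.0 ± 1.61 FPKM in DMSO (adjusted p = 0.00101), with a call that was lost with the most abundant transcript (0.457). NARS, for asparagine, fell to 45.8 ± 0.787 FPKM in LBH589, against 68.6 ± 4.41 FPKM in DMSO (adjusted p = 0.00246). With equal library sums 3 of the synthetases fell in place of 6, and 2 rose in place of 4 when LBH589 replicate 1 or 3 or DMSO replicate 2 was left out.

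Of 28 tested genes listed as other targets of ATF4 and CHOP, 5 of the 10 genes included, 12 rose and 9 fell (median 0.13). The median was -0.01 after quantile normalization and -0.09 with the most abundant transcript of each gene. Equal library sums gave 12 rises and 5 falls. The falls were 3 when LBH589 replicate 2 or DMSO replicate 2 was left out and 4 when LBH589 replicate 3 was. CHAC1 and NUPR1, both falls, were under 0.5 FPKM in LBH589, and of the other 26 genes 12 rose and 7 fell. Without the 10 genes, 9 of the other 23 rose and 7 fell (median 0.12). BCL2L11 encodes BIM, a trigger of apoptosis. It was at 11.6, 13.6 and 13.3 FPKM in LBH589 and at 1.37, 1.45 and 1.17 FPKM in DMSO, with no overlap (difference 2.57, limma adjusted p = 4.27e-05). The autophagy genes SQSTM1, which encodes the cargo receptor p62, and MAP1LC3B, which marks autophagosomes, rose as well. SQSTM1 was at 245, 521 and 282 FPKM in LBH589 and at 67.2, 48.4 and 39.5 FPKM in DMSO (adjusted p = 0.00114), and MAP1LC3B at 54.0 ± 4.31 FPKM in LBH589 and 24.1 ± 0.794 FPKM in DMSO (adjusted p = 2.45e-04). NUPR1, a stress-induced chromatin protein, was the deepest fall of the list. It was at 0.0308, 0.0224 and 0.0692 FPKM in LBH589 and at 5.71, 7.78 and 5.82 FPKM in DMSO (adjusted p = 5.15e-05), and it was listed through its DMSO values. With 1 transcript per gene, the most abundant, BCL2L11 (adjusted p = 0.237) and SQSTM1 (0.916, at a difference of -0.26) were not called.

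The other branches of the endoplasmic reticulum stress response were mixed too. Of 18 tested chaperone, IRE1 and ATF6 genes, 7 rose and 4 fell (median 0.19). Leaving out LBH589 replicate 2 gave 2 falls, and leaving out DMSO replicate 3 a median of 0.02. HSPA5, the chaperone BiP, was at 263, 258 and 266 FPKM in LBH589 and at 169, 151 and 155 FPKM in DMSO (limma adjusted p = 0.00114). SEL1L, of the degradation of misfolded protein, rose to 67.1 ± 6.34 FPKM in LBH589, against 31.4 ± 2.15 FPKM in DMSO (adjusted p = 4.71e-04). ERN1 (IRE1) rose to 3.54 ± 0.318 FPKM in LBH589, against 1.07 ± 0.12 FPKM in DMSO (adjusted p = 7.44e-04), whereas its target XBP1 fell to 7.41 ± 0.423 FPKM, against 20.4 ± 3.55 FPKM in DMSO (adjusted p = 7.66e-04). The XBP1 sum pools its spliced and unspliced forms.

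**Figure D4:**
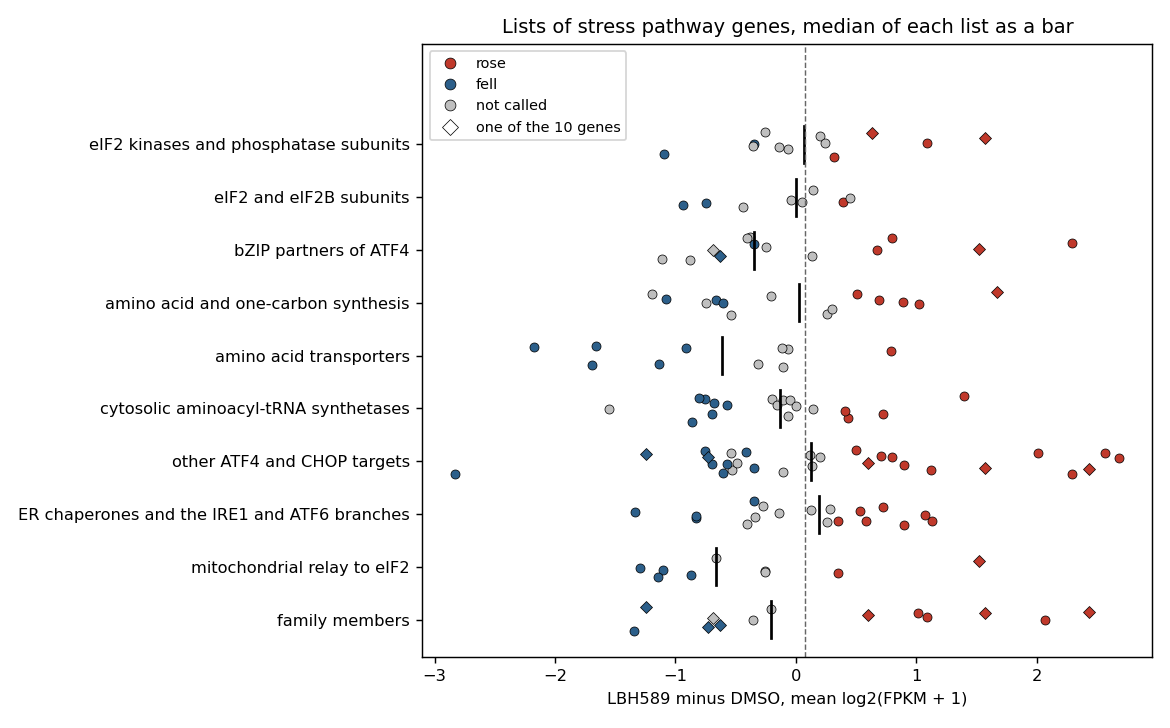
Difference in mean log2(FPKM + 1), LBH589 minus DMSO, of each tested gene in 10 pathway lists, coloured by the limma call, with diamonds for the 10 genes, a bar at each list's median and a dashed line at 0.08, the median of the tested genes. Rises and falls occur in every list, and amino acid transporters lie mostly to the left, with a median of -0.61.

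The pattern nearest to that of ATF4 was that of MFSD14A, NOP10 and SPART. Nearness was the root mean square, over the 6 libraries, of the difference in log2(FPKM + 1) after each gene was centred on its DMSO mean, among 6860 other genes whose mean reached 5 FPKM. It was 0.0699 for MFSD14A, 0.0823 for NOP10, a protein of small nucleolar particles, and 0.0917 for SPART, which encodes spartin. MFSD14A was at 10.8, 8.31 and 10.3 FPKM in LBH589 and at 16.7, 11.9 and 16.8 FPKM in DMSO. MFSD14A, NOP10 and SPART were picked over the same 6 libraries, so their likeness to ATF4 and the calls that they share with it follow from the choice.

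Summed FPKM was 355148 to 367222 in LBH589 and 397174 to 422630 in DMSO (two-sided exact permutation p = 0.1, the smallest that 3 against 3 samples allow). Mitochondrially encoded genes held 35.1 to 37.3% of FPKM in LBH589 and 35.8 to 45.7% in DMSO (exact permutation p = 0.3), and their part in the results was not tested beyond the rescaling without them, under which the same 9 of the 10 genes were called. The files hold no counts, so absolute depth is unknown and no counting interval is given. The line carried its lineage markers in DMSO. The 8 melanocyte markers summed to 739 to 802 FPKM in LBH589 and to 2572 to 2710 FPKM in DMSO, and 7 of them fell. TYRP1 (means of 500 FPKM in LBH589 and 1796 FPKM in DMSO) and PMEL (200 and 274 FPKM, not called) made up most of these sums. Apart from DCT, the falls that were deepest by ratio were those of SOX10 (0.688 and 69.4 FPKM), MLANA (16.7 and 244 FPKM) and TYR (9.56 and 116 FPKM). DCT was at 0.409, 0.365 and 0 FPKM in LBH589 and averaged 3.32 FPKM in DMSO. It was listed through its DMSO values, so its direction was in part set by the listing. Of 7 fibroblast markers 3 were listed, summing to 4.56 to 6.25 FPKM in LBH589 and 1.97 to 2.995 FPKM in DMSO, and of 5 epithelial markers 3 were, at 8.92 to 11.8 FPKM in LBH589 and 5.52 to 8.57 FPKM in DMSO. Of 6 leukocyte markers CD68 alone was listed, and of 5 endothelial markers 0, while PTPRC, PECAM1, CDH1 and COL1A2 had no listed transcript. The part of these markers in the results was not tested. In bulk RNA, fewer cells of a kind and less RNA per cell cannot be told apart.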

How the data were processed

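Each of the 6 deposited files gives, per the file headers, transcript identifiers with their FPKM. The submitters' processing notes list Bowtie 0.12.2 and hg19, with no role for either. How FPKM was estimated, with which annotation and filter, is not given in the sources used here. Of 30624 transcripts 30504 (99.61%) were named through GENCODE 29 by identifier without version, and FPKM was summed per gene, so transcripts of different length are added. Genes and transcripts were tested with limma 3.58.1 (R 4.3.3, statmod 1.5.0; trend, robust moderation, treatment as the only term). Differences are LBH589 minus DMSO in log2(FPKM + 1), which understates changes of low genes. Permutation tests used scipy 1.17.1. On simulated data over 11520 genes, limma recovered 9, 58.2 and 84.8% of changes of 0.5, 1 and 2, with 8 false calls. Those changes were planted in 67, 67 and 66 genes, drawn from the better expressed ones only. In the real data 48.8% of tested genes were called, so these rates do not give the power of this comparison, nor that for low genes. The genes and lists were chosen with earlier results of these data known. Named were the 10 genes, the eIF2 kinases, up to 4 other genes of smallest adjusted p per list and the 3 nearest to ATF4; EIF2S1, MARS, MBD6, SESN1, TRIB2 and single markers were added after values were seen. Alternatives were another pseudocount, filter, scaling, moderation, threshold, a replicate block, 1 transcript per gene and leaving out each library. No pair of libraries shared more than 1 equal value above 0.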

Additional observations from a re-analysis of the deposited data

How the results depend on the processing

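Directions of the 10 genes held under each alternative that gave a value. TRIB3, CHAC1, SESN2 and ATF5 gave none at a mean of at least 5 FPKM, where calls over all genes were 3590 in place of 5617, rises 1844 in place of 3132 and falls among the 10 genes 1 in place of 3. At adjusted p below 0.01, 5 of the 10 genes were called in place of 9, with 0 falls; ATF4 (-0.63), TRIB3 (-0.73), CHAC1 (-1.24) and SESN2 (0.60) did not reach it. With the most abundant transcript the falls were 1, and ATF4 (-1.03), ASNS (2.42) and CHAC1 (-1.24, limma adjusted p = 0.06) were not called. CHAC1 has 1 listed transcript, so its values were the same there, and only the moderation and adjustment over all genes differed. Equal library sums ended the call of ATF4 (-0.45). Without each library in turn, calls over all genes were 4649 to 5657, the 10 genes had 5 to 6 rises and 1 to 3 falls, and differences were -0.91 to -0.64 for TRIB3, -1.61 to -1.003 for CHAC1, 0.46 to 0.69 for SESN2 and -0.94 to -0.24 for ATF5; 5 rises, without LBH589 replicate 1, 2 or 3, came from the loss of SESN2, and 1 fall was left without LBH589 replicate 2 or DMSO replicate 2. Libraries of the same number did not vary together (r across genes -0.104, 0.021 and -0.035 for numbers 1 to 3), so the numbers were not taken as pairs. The replicate block left 7 of the 10 genes called, without CHAC1 (-1.24, adjusted p = 0.0869) and SESN2 (0.60, 0.0616). Signs reversed for EIF2AK4 with equal sums (0.10) and 1 transcript per gene (0.12), for HSPD1 (1.66), MITF (0.0595) and SQSTM1 (-0.26) with 1 transcript per gene, for ATF4-202 without LBH589 replicate 1 (-0.27) or 3 (-0.18) or DMSO replicate 1 (-0.14) or 2 (-0.36; range over left-out libraries -0.36 to 1.13), for ASNS-208 without DMSO replicate 2 (0.0495; range -1.30 to 0.0495), and for ATF5-201 at pseudocount 0.1 (0.27) and without DMSO replicate 1 (0.38; range -0.49 to 0.38). Of the list counts, 87 moved by over 1.5 times or went to or from 0, and 389 did not. The cause of these changes was not tested.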

Other observations

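Of 6 tested relatives of the 10 genes, 3 rose (SESN3, CHAC2 and PPP1R15B), 1 fell (TRIB1) and 2 did not pass, where 27.2% of tested genes rose and 21.6% fell. SESN3, the sestrin with the highest level here, was at 37.1, 36.7 and 37.9 FPKM in LBH589 and at 6.21, 8.87 and 9.65 FPKM in DMSO (difference 2.07, SE 0.16, limma adjusted p = 1.97e-04). SESN1 was at 5.26, 5.65 and 3.23 FPKM in LBH589 and at 6.64, 3.59 and 6.67 FPKM in DMSO and did not pass (adjusted p = 0.582). CHAC2, the relative of CHAC1 with slower glutathione breakdown, rose to 14.2 ± 0.802 FPKM in LBH589, against 6.51 ± 0.518 FPKM in DMSO (SD, n = 3 each, limma adjusted p = 6.03e-04), while CHAC1 fell as given above. TRIB1 fell to 21.9 ± 0.625 FPKM in LBH589, against 57.5 ± 4.45 FPKM in DMSO (limma adjusted p = 1.19e-04), the direction of TRIB3. TRIB2 was at 8.51, 8.45 and 7.78 FPKM in LBH589 and at 13.7, 10.8 and 8.45 FPKM in DMSO (adjusted p = 0.149).

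The mitochondrial relay to eIF2 passes through OMA1, a protease of the inner membrane, to HRI. The list made for it also holds mitochondrial chaperones and proteases, so its median does not describe the relay alone. Of its 9 tested genes, DDIT3 included, 2 rose and 4 fell (median -0.66), where 48.8% of tested genes were called. OMA1 rose to 13.6 ± 1.36 FPKM in LBH589, against 10.5 ± 0.377 FPKM in DMSO (limma adjusted p = 0.0402). EIF2AK1, which encodes HRI, was not called (limma adjusted p = 0.0677). OMA1 lost its call when any library but LBH589 replicate 3 was left out, which left 1 rise, and the median was -0.30 without DMSO replicate 1. Without DDIT3, 1 of the other 8 genes rose and 4 fell (median -0.77). The falls were matrix chaperones and a protease. HSPA9, the mitochondrial HSP70, was at 74.9, 84.6 and 65.5 FPKM in LBH589 and at 179, 170 and 206 FPKM in DMSO (limma adjusted p = 5.36e-04). HSPD1 fell to 175 ± 32.7 FPKM in LBH589, against 374 ± 17.1 FPKM in DMSO (adjusted p = 0.00162), and its partner HSPE1 to 26.9 ± 3.35 FPKM, against 60.6 ± 6.33 FPKM in DMSO (adjusted p = 7.44e-04). LONP1, a matrix protease, fell to 12.5 ± 1.13 FPKM in LBH589, against 24.0 ± 6.08 FPKM in DMSO (adjusted p = 0.00978). HSPD1 and LONP1 were not called when 1 transcript per gene, the most abundant, was used (limma adjusted p = 0.64 and 0.531).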
